A study of Mus musculus with 10 samples.

Results

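Cholesterol biosynthesis genes were examined in freshly isolated mouse endothelial cells by RNA-Seq. The set held 8 genes of 23284 symbols in the gene count table, found by their symbols: the enzymes Hmgcs1, Idi1, Fdps, Sqle, Lss and Cyp51, and the regulators Insig1 and Srebf2. The samples were 4 libraries of lymph node lymphatic endothelial cells (LN-LEC), 3 of lymph node blood endothelial cells (LN-BEC) and 3 of diaphragm lymphatic endothelial cells (D-LEC). All came from C57BL/6 (B6) mice of 6 to 8 weeks, for which the labels give no transgene or treatment, and each library pooled cells of several mice. The lymph node libraries combined inguinal, axillary, brachial, cervical and mesenteric nodes, so differences among nodes are averaged. After digestion, CD45+ cells were depleted and CD31+ cells were sorted, with podoplanin (PDPN) separating lymphatic from blood endothelium. Pdpn is therefore a gate and no finding here.

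Cells make cholesterol from acetyl-CoA by way of mevalonate, isoprenoid diphosphates, squalene and lanosterol. The transcription factor SREBP2, encoded by Srebf2, drives the genes of this route when membrane sterol is low. INSIG proteins hold the SREBP escort SCAP in the endoplasmic reticulum when sterol is high, so the route is held back by its own product. Endothelial cells also take up lipoprotein cholesterol and return sterol to carriers, and lymphatic vessels are a route by which tissue cholesterol goes back to the blood.

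Total counts per library ranged from 22429940 to 48906070. Levels below are normalised read counts, the deposited counts divided by a size factor per library. Lymphatic and blood endothelial markers followed the labels. The summed level of 6 lymphatic markers was 135000 to 152000 in LN-LEC, 599000 to 623000 in D-LEC and 3240 to 10200 in LN-BEC. That of 6 blood endothelial markers was 89900 to 94000 in LN-BEC and at most 8030 elsewhere. The lymphatic sum includes Pdpn, whose level the sort fixed, at means of 18850 in LN-LEC, 63370 in D-LEC and 622 in LN-BEC. Prox1, not used to sort, had means of 8100, 7946 and 224 in the same order. Libraries LN-LEC 4 and LN-BEC 3 stood apart from the others of their population: the chi-square statistic per gene was 113 to 147 for pairs with LN-LEC 4 against 10 to 18.1 among the other LN-LEC libraries, and 296 to 370 for pairs with LN-BEC 3 against 25.3 for the other LN-BEC pair. Results are therefore also given without both.

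The enzymes Fdps, Sqle, Lss and Cyp51 were higher in LN-LEC than both other populations, and the regulators each followed another pattern. Against LN-BEC, 5 of the 7 members tested were higher in LN-LEC and 0 were lower, beside 19.8% of the 15331 genes tested called toward LN-LEC and 18.4% toward LN-BEC (edgeR quasi-likelihood test, adjusted p under 0.05). Against D-LEC, 5 of 7 were higher in LN-LEC and 0 lower, beside 24.1% of genes called toward LN-LEC and 21.7% toward D-LEC. Between D-LEC and LN-BEC, 1 member was higher in D-LEC (Srebf2) and 1 higher in LN-BEC (Insig1), where 22.5% and 25.6% of genes were called in these directions. The median log2 fold change of the 7 members was 0.83 against LN-BEC and 0.66 against D-LEC, beside -0.01 and 0.03 over all genes tested. The comparisons share libraries, so they are not independent of each other. Without LN-LEC 4 and LN-BEC 3 the numbers of members called were again 5, 5 and 2. The log2 fold changes from LN-BEC were then 1.24 for Fdps, 0.79 for Sqle, 0.90 for Lss, 1.15 for Cyp51 and 0.98 for Srebf2, and those from D-LEC were 1.33, 0.69, 1.23 and 1.04 for the 4 enzymes and 0.50 for Insig1.

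**Figure D1:**
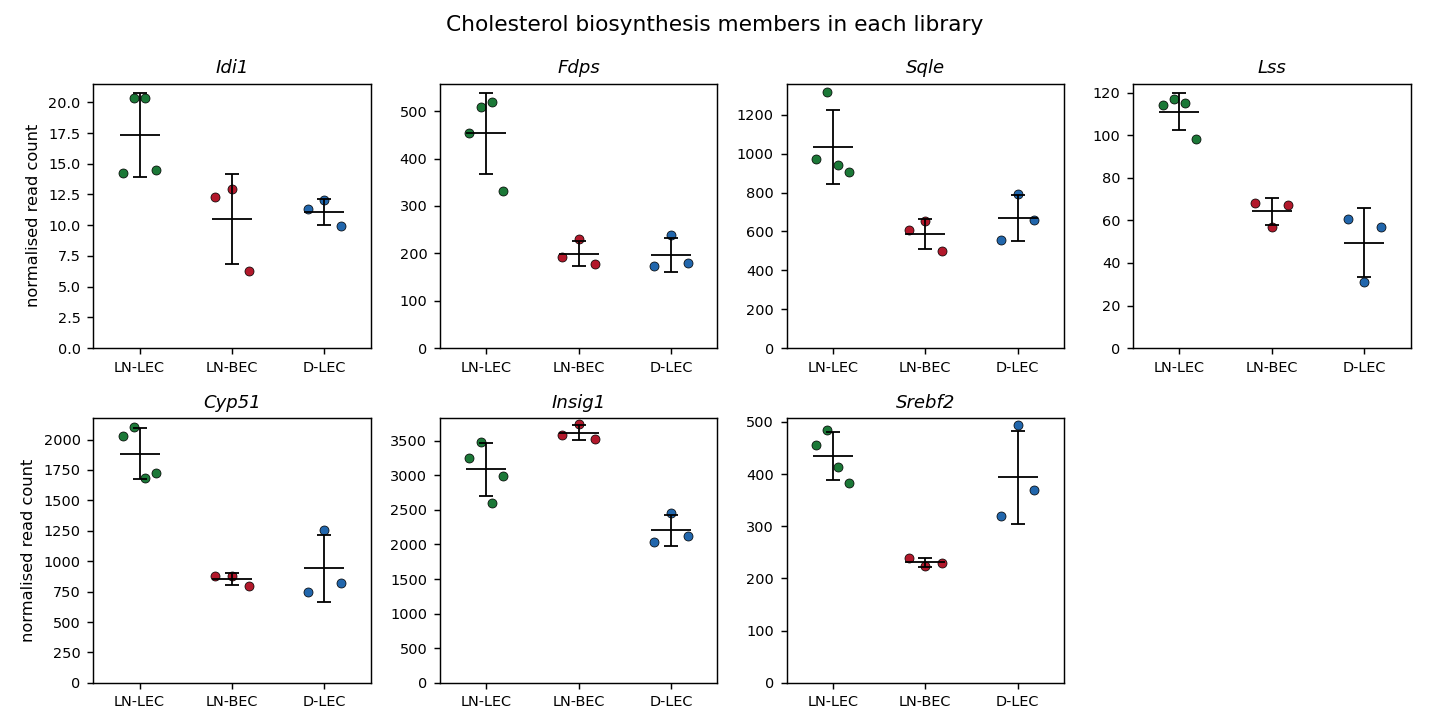
Normalised read count (y axis, linear from 0) of the 7 members with counts in each of 10 libraries, by population; points are libraries, the wide bar is the mean and the whiskers are 1 SD. Fdps, Sqle, Lss and Cyp51 lie higher in all 4 LN-LEC libraries than in any other library, while Insig1 is highest in LN-BEC and Srebf2 is low in LN-BEC alone.

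Srebf2 encodes the sterol-regulated transcription factor of the route (mm9 chr15:81977699-82035390, + strand, 19 exons). Its level was 456, 485, 414 and 382 in the 4 LN-LEC libraries, 240, 223 and 230.0 in LN-BEC, and 320.4, 493 and 369 in D-LEC. The lowest LN-LEC library lay above every LN-BEC library, and the D-LEC libraries spanned the LN-LEC range. Srebf2 was 1.90-fold higher in LN-LEC than LN-BEC (log2 fold change 0.92 ± 0.15 SE, adjusted p = 0.00023, edgeR). It was also 1.70-fold higher in D-LEC than LN-BEC (0.77 ± 0.16 SE, adjusted p = 0.0013, edgeR). Between LN-LEC and D-LEC the log2 difference was 0.16, with a 95% interval of -0.16 to 0.47 (adjusted p = 0.42, edgeR), so this comparison did not separate both lymphatic populations. The order was thus both lymphatic populations above LN-BEC.

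Insig1 encodes an endoplasmic reticulum protein that retains SCAP and is itself a target of SREBP (mm9 chr5:28397952-28405202, + strand, 5 exons). Its level was 3252, 3486, 2605 and 2990.0 in LN-LEC, 3587, 3734 and 3527 in LN-BEC, and 2029, 2450.0 and 2127 in D-LEC. Every LN-BEC library lay above every LN-LEC library, and every D-LEC library lay below both. Insig1 was 1.42-fold higher in LN-LEC than D-LEC (log2 0.51 ± 0.11 SE, adjusted p = 0.0014, edgeR). It was 1.65-fold lower in D-LEC than LN-BEC (log2 -0.72 ± 0.11 SE, adjusted p = 0.00012, edgeR). The LN-LEC to LN-BEC difference of -0.21 did not pass the test (95% interval -0.44 to 0.01, adjusted p = 0.12, edgeR). Fdps, Sqle, Lss and Cyp51, highest in LN-LEC and not called between the others, had another order. Of 100-base windows along its exons, 26.9% have a second copy in the mm9 genome, and reads that mapped to several places were left uncounted.

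Hmgcs1 encodes HMG-CoA synthase, an early enzyme of the mevalonate route. It was listed at 0 in all 10 libraries, where 3 counts, the upper limit that a count of 0 allows, correspond to 0.0613 to 0.134 CPM for counting error alone. The annotation used for counting gives the gene 22 exon rows, which form 2 copies of 11 exons with the same exon lengths, at chr13_random:114710-132325 and chr13_random:308620-326235 in mm9. All 60 symbols whose every position lies on such unplaced sequence were at 0 in every library. The 0 for Hmgcs1 is therefore not a reading of its transcript, and it entered no test.

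Idi1 encodes isopentenyl diphosphate isomerase, which interconverts the 5-carbon building blocks (mm9 chr13:8884852-8891642, + strand, 5 exons). It held 6 to 23 raw counts per library. Its level was 14.3, 20.3, 20.4 and 14.5 in LN-LEC, 12.3, 13 and 6.30 in LN-BEC, and 11.4, 12 and 9.92 in D-LEC. The LN-LEC libraries lay above the others, by little. The log2 differences of 0.72 from LN-BEC (95% interval -0.24 to 1.67, adjusted p = 0.23, edgeR) and 0.66 from D-LEC (-0.30 to 1.61, adjusted p = 0.25, edgeR) did not pass the test. Of the windows along its exons, 82.0% have a second copy in mm9, and what this took from its count was not measured.

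Fdps encodes farnesyl diphosphate synthase, whose product feeds sterols, prenylated proteins, dolichol and ubiquinone (mm9 chr3:88897510-88905889, - strand, 11 exons). Its level was 454, 508, 519 and 331 in LN-LEC, 193, 229 and 177 in LN-BEC, and 174, 239 and 179 in D-LEC. LN-LEC 4 was the lowest of its population and still above every library of the others. Fdps was 2.29-fold higher in LN-LEC than LN-BEC (log2 1.19 ± 0.18 SE, adjusted p = 0.00013, edgeR) and 2.32-fold higher than in D-LEC (log2 1.22 ± 0.18 SE, adjusted p = 9.9e-05, edgeR). The difference between D-LEC and LN-BEC was -0.02, with a 95% interval of -0.44 to 0.40 (adjusted p = 0.94, edgeR). A second copy in mm9 exists for 41.6% of its exon windows.

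Sqle encodes squalene epoxidase, the first oxygen-dependent step toward sterols (mm9 chr15:59146647-59162748, + strand, 11 exons). Its level was 972, 1319, 940 and 905 in LN-LEC, 608, 653 and 500.0 in LN-BEC, and 558, 792 and 659 in D-LEC. LN-LEC 2 stood above the other LN-LEC libraries, and the lowest of these was still above the highest D-LEC library. Sqle was 1.78-fold higher in LN-LEC than LN-BEC (log2 0.83 ± 0.16 SE, adjusted p = 0.00087, edgeR) and 1.56-fold higher than in D-LEC (log2 0.64 ± 0.16 SE, adjusted p = 0.0046, edgeR). D-LEC and LN-BEC differed by 0.19 (95% interval -0.18 to 0.55, adjusted p = 0.38, edgeR).

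Lss encodes lanosterol synthase, which closes the sterol rings (mm9 chr10:75994372-76016679, + strand, 22 exons). Its level was 114, 117, 115 and 98.1 in LN-LEC, 68.3, 57.1 and 67.2 in LN-BEC, and 60.5, 31.1 and 57.0 in D-LEC. Both other populations lay below the lowest LN-LEC library, and D-LEC 2 was the lowest of all. Lss was 1.75-fold higher in LN-LEC than LN-BEC (log2 0.80 ± 0.25 SE, adjusted p = 0.021, edgeR), and the adjusted p became 0.075 without LN-BEC 2 (log2 0.73). It was 2.27-fold higher than in D-LEC (log2 1.19 ± 0.26 SE, adjusted p = 0.0018, edgeR). Of its exon bases, 6.06% overlap another gene, 4930483K19Rik, and reads there were counted for neither.

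Cyp51 encodes lanosterol 14-alpha demethylase (mm9 chr5:4080674-4104697, - strand, 10 exons). Its level was 2025, 2102, 1683 and 1722 in LN-LEC, 879, 882 and 796 in LN-BEC, and 745, 1255 and 821 in D-LEC. D-LEC 2 was the highest outside LN-LEC and lay below all 4 LN-LEC libraries. Cyp51 was 2.23-fold higher in LN-LEC than LN-BEC (log2 1.16 ± 0.16 SE, adjusted p = 9.6e-05, edgeR) and 2.03-fold higher than in D-LEC (log2 1.02 ± 0.16 SE, adjusted p = 0.00024, edgeR). The D-LEC to LN-BEC difference was 0.14 (95% interval -0.24 to 0.51, adjusted p = 0.53, edgeR). No exon window of Sqle, Lss, Cyp51 or Srebf2 has a second copy in mm9.

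**Figure D2:**
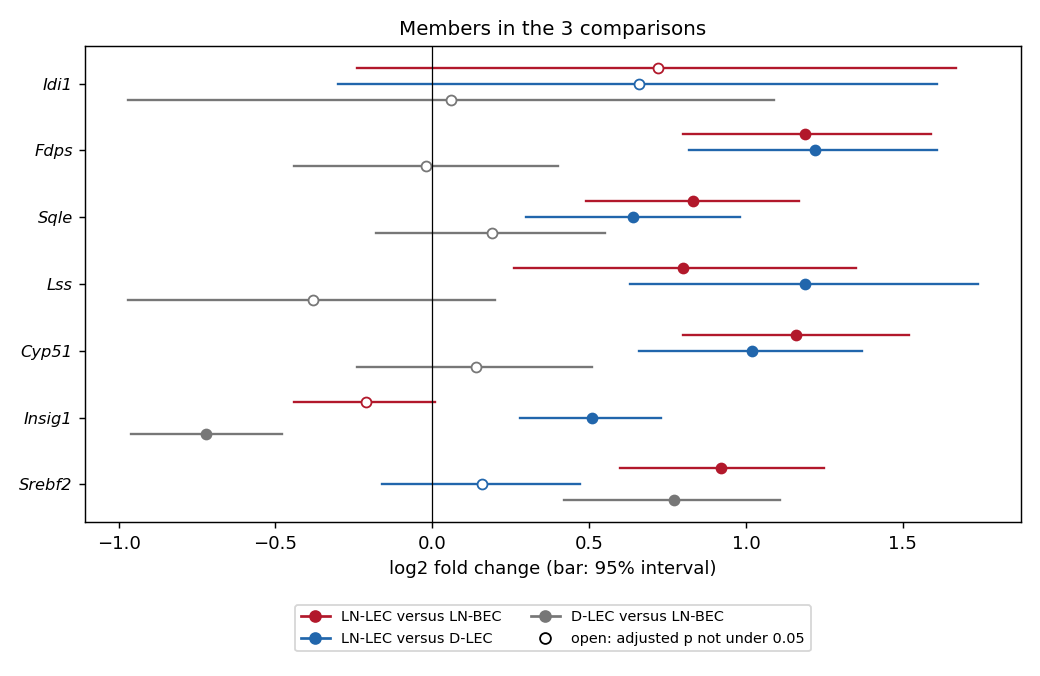
Log2 fold change (x axis) of the 7 members in 3 comparisons, with 95% intervals; filled points have an adjusted p under 0.05 and open points do not. The enzymes Fdps, Sqle, Lss and Cyp51 lie right of 0 in both LN-LEC comparisons and their intervals include 0 between D-LEC and LN-BEC, while Insig1 and Srebf2 each pass the test there, at -0.72 and 0.77.

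Per kilobase of the deposited gene length, the mean level in LN-LEC was 1164 for Insig1, 433 for Cyp51, 376 for Sqle, 309.9 for Fdps, 95.04 for Srebf2, 35.8 for Lss and 6.05 for Idi1. In LN-BEC the level per kilobase was 1366 for Insig1 and 196 for Cyp51, and in D-LEC it was 832 and 216. The levels of Insig1, Fdps and Idi1 per kilobase may be low, since the counting left out reads with several positions, and the number of reads lost was not measured.

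Promoter sequence is shown for member enzymes called higher in LN-LEC against both populations, beside Insig1, which followed another order of populations, and Hmgcs1. RefSeq windows of 300 bases around the start (GRCm38.p6) were given for 6 of the 8 members; none was given for Fdps and Sqle. The letters CCAAT (the box bound by NF-Y), GGGCGG (bound by Sp1) and TCACNCCAC (a form of the sterol regulatory element) were searched on both strands, and no match overlapped another in these windows. CCAAT was in 37.4% of all 32851 promoters, GGGCGG in 35.7% and TCACNCCAC in 1.24%. CCAAT and GGGCGG each occurred in all 6 members, and TCACNCCAC in 1 of 6, Hmgcs1. Other forms of the sterol regulatory element were not searched, so a window without TCACNCCAC may still hold one. Shown are Cyp51 and Lss, 2 enzymes higher in LN-LEC, at chr5:4104702-4104852 (- strand) and chr10:76531419-76531567 (+ strand), with Insig1 at chr5:28071163-28071311 (+ strand) and Hmgcs1 at chr13:119690101-119690400 (+ strand), all in GRCm38.p6, 5′ to 3′ along the gene, with every match in capitals.
Cyp51: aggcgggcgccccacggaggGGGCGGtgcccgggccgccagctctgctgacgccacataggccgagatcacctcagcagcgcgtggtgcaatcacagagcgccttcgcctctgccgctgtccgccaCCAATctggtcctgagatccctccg
Lss: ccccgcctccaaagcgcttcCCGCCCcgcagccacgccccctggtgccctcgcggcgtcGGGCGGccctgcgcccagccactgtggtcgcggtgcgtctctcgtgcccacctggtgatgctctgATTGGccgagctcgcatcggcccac
Insig1: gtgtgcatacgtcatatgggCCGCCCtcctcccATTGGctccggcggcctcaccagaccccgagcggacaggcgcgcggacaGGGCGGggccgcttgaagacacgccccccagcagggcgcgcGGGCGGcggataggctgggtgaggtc
Hmgcs1: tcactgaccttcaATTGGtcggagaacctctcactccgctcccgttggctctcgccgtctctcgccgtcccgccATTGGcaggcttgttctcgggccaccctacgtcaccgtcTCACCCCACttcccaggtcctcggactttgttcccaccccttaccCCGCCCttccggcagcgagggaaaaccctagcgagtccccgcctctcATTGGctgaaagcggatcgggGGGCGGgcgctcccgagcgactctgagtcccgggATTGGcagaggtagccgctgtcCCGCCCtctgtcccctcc
In Cyp51, CCAAT began 29 bases before the start and GGGCGG 135 before it. In Lss a reverse-strand CCAAT began 62 bases before the start, with GGGCGG on the reverse strand 166 and on the forward strand 127 bases before it. Insig1 held 3 GGGCGG matches and 1 CCAAT, the latter 216 bases before the start. Hmgcs1 held 4 CCAAT, 3 GGGCGG and the TCACNCCAC match, which began 137 bases before the start. RefSeq thus places Hmgcs1 on chromosome 13 itself in this later build. A match is a description of letters, not of binding.

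The wider route was described with 21 enzymes of cholesterol synthesis, of which 20 were tested, Hmgcs1 being the exception. Against LN-BEC, 15 were higher in LN-LEC, 1 was lower and 4 were not called (Acat2, Idi1, Tm7sf2 and Ebp), with a median log2 fold change of 0.76. Against D-LEC, 13 were higher in LN-LEC, 1 was lower and 6 were not called, with a median of 0.66. D-LEC and LN-BEC differed in 7 enzymes, 4 higher and 3 lower in D-LEC, with a median of 0.04 beside -0.05 over all genes. Without LN-LEC 4 and LN-BEC 3 the counts were 14 higher and 1 lower, 13 higher and 1 lower, and 3 higher and 3 lower. Over all genes with every library kept, 19.8% and 18.4% were called higher and lower against LN-BEC, and 24.1% and 21.7% against D-LEC. For D-LEC against LN-BEC these were 22.5% and 25.6%, above the shares of enzymes called. The list contains the 6 member enzymes and is no independent support for them.

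**Figure D3:**
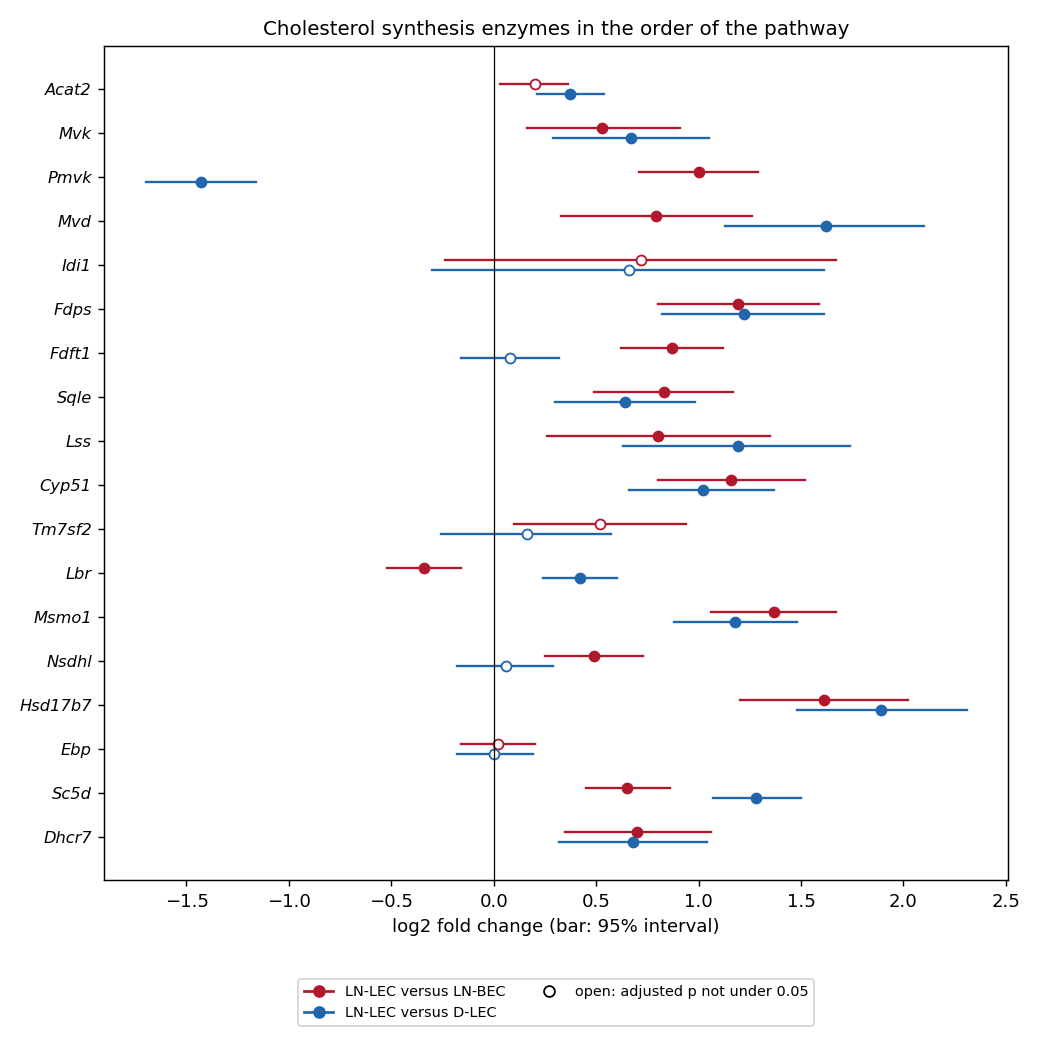
Log2 fold change (x axis) of 18 of the cholesterol synthesis enzymes tested, ordered along the route from acetyl-CoA at the top, for LN-LEC versus LN-BEC and LN-LEC versus D-LEC, with 95% intervals; filled points have an adjusted p under 0.05. Hsd17b7 lies at 1.61 and 1.89, Pmvk is on opposite sides of 0 in these comparisons, and Ebp lies at 0.02 and 0.00.

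Hsd17b7, a ketosteroid reductase of the demethylation steps, was 3.06-fold and 3.71-fold higher in LN-LEC than LN-BEC and D-LEC (adjusted p = 2.4e-05 and 6.2e-06, edgeR). Msmo1, the methylsterol oxidase listed under its older symbol Sc4mol, was 2.58-fold and 2.27-fold higher in the same order (adjusted p = 3.2e-06 and 1.1e-05, edgeR).

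Among the mevalonate steps, Pmvk and Mvd differed between the lymphatic populations in opposite directions. Pmvk, phosphomevalonate kinase, was at 404, 382, 398 and 378 in LN-LEC, 172, 191 and 229 in LN-BEC, and 1265, 1067 and 887 in D-LEC. It was 2-fold higher in LN-LEC than LN-BEC (adjusted p = 3.7e-05) and 2.70-fold lower than in D-LEC (adjusted p = 5.3e-07, both edgeR), with no overlap among the populations. Mvd, the decarboxylase of the step that follows, was 3.06-fold higher in LN-LEC than D-LEC (adjusted p = 5.1e-05), 1.73-fold higher than in LN-BEC (adjusted p = 0.0098) and 1.77-fold lower in D-LEC than LN-BEC (adjusted p = 0.011, all edgeR). Fdft1, squalene synthase, was 1.73-fold higher in D-LEC than LN-BEC (adjusted p = 0.00011) and 1.82-fold higher in LN-LEC than LN-BEC (adjusted p = 3.6e-05, both edgeR), with 27% of its exon bases shared with Ctsb. Lbr, the lamin B receptor with sterol reductase activity, was the enzyme lower in LN-LEC than LN-BEC (1.27-fold, adjusted p = 0.0046), and it was 1.34-fold higher than in D-LEC (adjusted p = 0.00091, both edgeR). Also called between D-LEC and LN-BEC were Pmvk and Nsdhl, higher in D-LEC, and Lbr and Sc5d, lower, of which Nsdhl and Sc5d are named after their values were seen.

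Among 14 regulators of SREBP processing, 5 were higher in LN-LEC than LN-BEC and 0 lower, beside 19.8% and 18.4% of all genes. The 5 regulators were Srebf2, Insig2, Rnf145, Erlin1 and Pgrmc1. Insig2, the second INSIG protein, was at 1409, 1415, 1523 and 1393 in LN-LEC, 852, 790.4 and 938 in LN-BEC, and 1602, 1757 and 1822 in D-LEC. It was lowest where Insig1 was highest, 1.69-fold higher in LN-LEC than LN-BEC (adjusted p = 1.1e-05), 1.19-fold lower than in D-LEC (adjusted p = 0.032) and 2-fold higher in D-LEC than LN-BEC (adjusted p = 9.1e-07, all edgeR). Scap, which escorts SREBP to the Golgi, differed by -0.06 from LN-BEC (95% interval -0.24 to 0.13) and by 0.02 from D-LEC (-0.17 to 0.21). Srebf1, which encodes the SREBP1 forms that favour fatty acid genes, was 1.23-fold lower in LN-LEC than D-LEC (adjusted p = 0.031, edgeR), and its LN-BEC difference was -0.17 (adjusted p = 0.23, edgeR). Rnf145, a ubiquitin ligase of the sterol response, was 2.07-fold higher in LN-LEC than LN-BEC (adjusted p = 2.1e-07, edgeR). Between LN-LEC and D-LEC, 3 regulators were higher and 3 lower, near the 24.1% and 21.7% of all genes. Leaving out LN-LEC 4 or D-LEC 3 brought the number of regulators called from 6 to 3. Between D-LEC and LN-BEC, 6 were higher in D-LEC and 2 lower, beside 22.5% and 25.6% of all genes.

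Of 16 genes of cholesterol uptake and intracellular transport, 7 were higher and 5 lower in LN-LEC than LN-BEC, and 7 were higher and 5 lower than in D-LEC. The shares of all genes called in these directions were 19.8% and 18.4% against LN-BEC, and 24.1% and 21.7% against D-LEC. Mylip, a ubiquitin ligase that limits lipoprotein uptake, was 3.55-fold higher in LN-LEC than D-LEC (adjusted p = 1e-05), and its log2 difference of 0.42 from LN-BEC did not pass the test (adjusted p = 0.094, both edgeR).

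Scarb1, the HDL receptor, was at 803 to 1062 in LN-LEC, 15900 to 17100 in LN-BEC and 178 to 217 in D-LEC. It was 17.4-fold lower in LN-LEC than LN-BEC (adjusted p = 1.3e-11) and 4.91-fold higher than in D-LEC (adjusted p = 2.2e-09, both edgeR). Lrp8, an ApoE receptor, was 1.91-fold higher in LN-LEC than LN-BEC (adjusted p = 0.0094) and 1.74-fold lower than in D-LEC (adjusted p = 0.014, both edgeR). Gramd1a, which carries sterol from the plasma membrane to the endoplasmic reticulum, was 2.82-fold lower in LN-LEC than D-LEC (adjusted p = 2.2e-07) and 1.70-fold higher than in LN-BEC (adjusted p = 0.0002, both edgeR). Its relative Gramd1c was 2.89-fold higher than in D-LEC and 2.90-fold higher than in LN-BEC (adjusted p = 0.0048 and 0.0054, edgeR).

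Among 8 genes of the LXR response, efflux and esterification, 3 were higher and 3 lower in LN-LEC than LN-BEC, and 4 were higher and 2 lower than in D-LEC. Without LN-LEC 4 and LN-BEC 3, 4 were higher and 2 lower in the former comparison. Over all genes, 19.8% and 18.4% were called in these directions against LN-BEC, and 24.1% and 21.7% against D-LEC. LXR receptors sense oxysterols and drive efflux genes such as Abca1 and Abcg1. Abcg1, a sterol exporter to HDL, was at 1025, 854, 1208 and 1086 in LN-LEC, 5087, 5332 and 5177 in LN-BEC, and 5029, 4670.0 and 4830.0 in D-LEC. It was 4.92-fold lower in LN-LEC than LN-BEC (adjusted p = 9.5e-10) and 4.57-fold lower than in D-LEC (adjusted p = 1e-09, both edgeR). Abca1, the exporter to lipid-poor apolipoproteins, differed by 0.06 from LN-BEC (95% interval -0.21 to 0.33) and was 1.41-fold higher than in D-LEC (adjusted p = 0.0052, edgeR). Nceh1, a cholesteryl ester hydrolase, was at 14740 to 18870 in LN-LEC, 3877 to 4179 in LN-BEC and 1276 to 2008 in D-LEC, 4.23-fold and 10.2-fold higher in LN-LEC (adjusted p = 7.2e-08 and 1.1e-09, edgeR). Apoe, the lipoprotein ligand, was 1.63-fold lower in LN-LEC than LN-BEC (adjusted p = 0.0043) and 23.3-fold higher than in D-LEC (adjusted p = 2.8e-09, both edgeR). Nr1h3, which encodes LXR-alpha, was 3.46-fold lower in LN-LEC than D-LEC (adjusted p = 7.4e-09) and 1.35-fold higher than in LN-BEC (adjusted p = 0.0054, both edgeR).

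Oxysterols made from cholesterol hold SREBP back by binding INSIG and activate LXR. Ch25h, the cholesterol 25-hydroxylase, was at 53.2, 76.2, 53.1 and 117 in LN-LEC, 1319, 1830.0 and 1742 in LN-BEC, and 877, 826 and 1205 in D-LEC. Every LN-LEC library was below every other library, 20.7-fold lower than LN-BEC (adjusted p = 3.4e-07) and 12.3-fold lower than D-LEC (adjusted p = 1.2e-06, both edgeR). Cyp7b1, which hydroxylates and removes 25- and 27-hydroxycholesterol, was at 553 to 628 in LN-LEC, 121 to 149 in LN-BEC and 34.1 to 63.1 in D-LEC. It was 4.43-fold and 11.1-fold higher in LN-LEC (adjusted p = 3.3e-07 and 5.7e-09, edgeR). Cyp27a1, the sterol 27-hydroxylase, was 2.47-fold and 7.45-fold higher in LN-LEC than LN-BEC and D-LEC (adjusted p = 5.7e-08 and 5.8e-11, edgeR). Hsd3b7, which acts after CYP7B1, was 1.43-fold higher than in LN-BEC (adjusted p = 0.0055) and 2.85-fold lower than in D-LEC (adjusted p = 3.1e-07, both edgeR). Over the 6 genes of this list 3 were higher and 1 lower than in LN-BEC, and 2 were higher and 4 lower than in D-LEC. Of all genes, 19.8% and 18.4% were called in these directions against LN-BEC, and 24.1% and 21.7% against D-LEC.

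**Figure D4:**
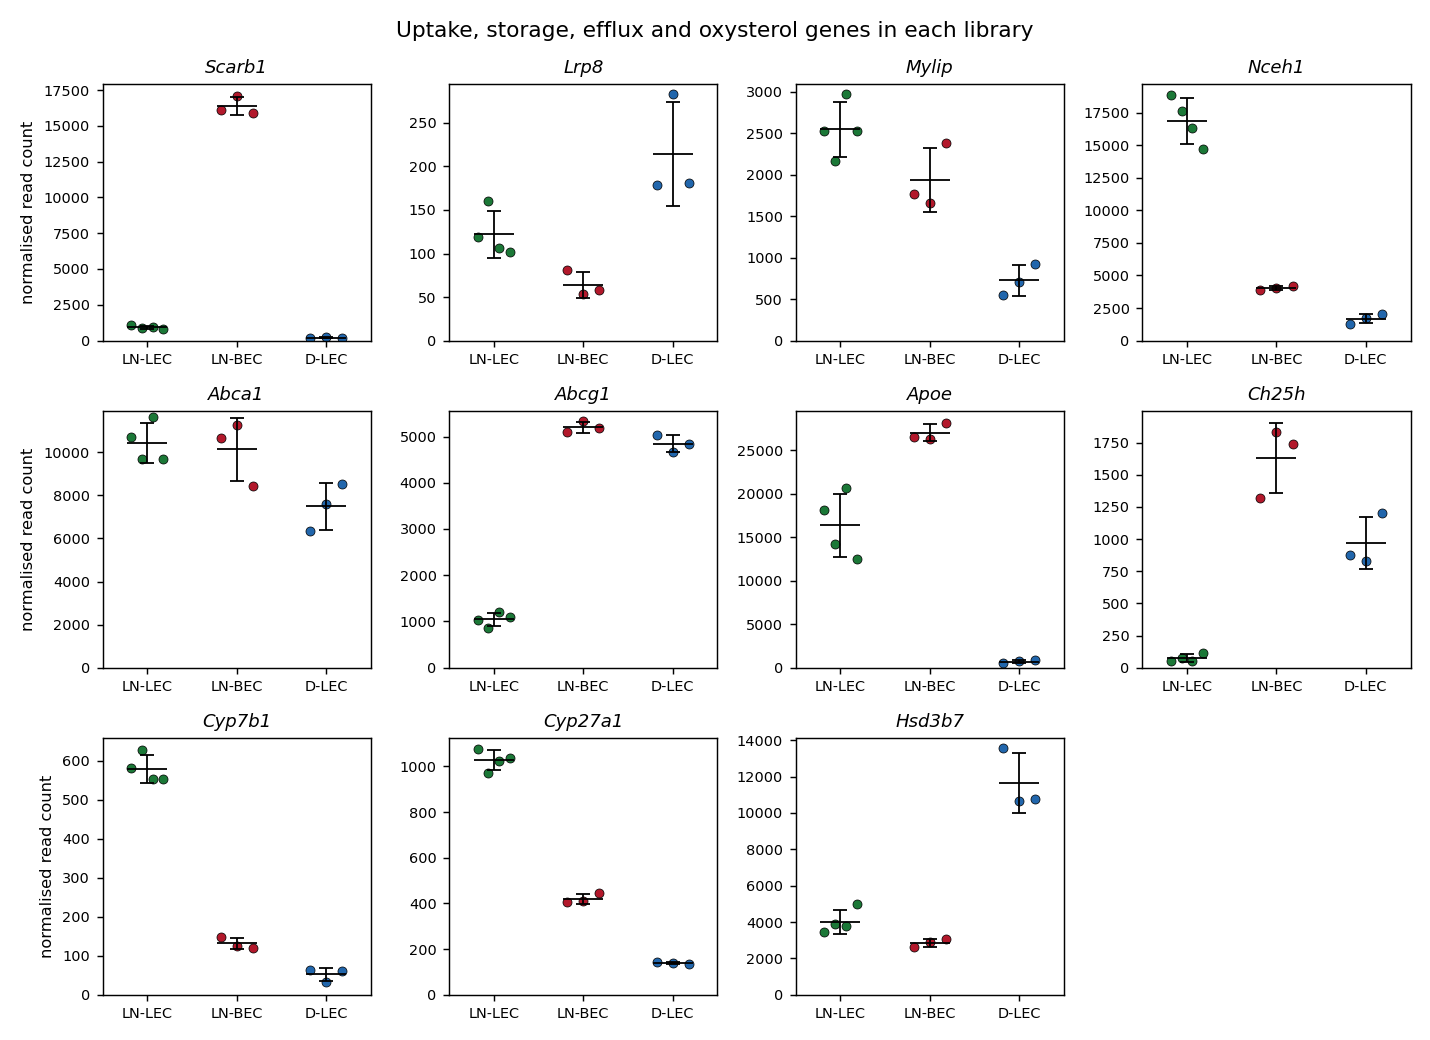
Normalised read count (y axis, linear from 0) of 11 genes of sterol uptake, storage, efflux and oxysterol metabolism in each of 10 libraries; points are libraries, the wide bar is the mean and whiskers are 1 SD. Nceh1, Cyp7b1 and Cyp27a1 are highest in the LN-LEC libraries, Abcg1 and Ch25h are lowest there, and Scarb1 and Apoe are highest in LN-BEC.

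The isoprenoid branch, which also draws on the product of Fdps, held 11 genes, of which 0 were higher and 1 lower in LN-LEC than LN-BEC (Nus1, 1.52-fold, adjusted p = 0.016, edgeR), with a median of -0.04. Against D-LEC, 2 were higher and 3 lower, and the number called was 3 without LN-LEC 2 and 2 without D-LEC 1. D-LEC and LN-BEC differed in 4 genes of this branch, 2 in each direction, and in 8 without D-LEC 2. The shares of all genes called higher and lower were 19.8% and 18.4% for LN-LEC against LN-BEC. They were 24.1% and 21.7% for LN-LEC against D-LEC, and 22.5% and 25.6% for D-LEC against LN-BEC. Of 13 fatty acid synthesis enzymes, 3 were higher in LN-LEC than LN-BEC and 2 lower, and 6 were higher and 5 lower than in D-LEC. The shares against LN-BEC lie near the 19.8% and 18.4% of all genes. Fasn, fatty acid synthase, was 1.67-fold higher in LN-LEC than LN-BEC and 2.62-fold higher than in D-LEC (adjusted p = 0.00046 and 1.6e-06, edgeR). Elovl6, a fatty acid elongase, was 3.18-fold lower in LN-LEC than LN-BEC (adjusted p = 2.2e-07) and 1.46-fold higher than in D-LEC (adjusted p = 0.0057, both edgeR). Scd1, a desaturase, was 10.6-fold higher in LN-LEC than D-LEC (adjusted p = 8.8e-06), and its log2 difference of 0.50 from LN-BEC did not pass the test (adjusted p = 0.16, both edgeR).

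Other measures moved with the populations. A list of 11 immediate early and heat shock genes (the latter Hspa1a and Hspa1b) respond to tissue digestion among other stimuli. The summed level of the 11 genes was 28900 to 80300 in LN-LEC, 84000 to 156000 in LN-BEC and 243000 to 274000 in D-LEC. Of these genes 6 were lower in LN-LEC than LN-BEC and 11 lower than in D-LEC, beside 18.4% and 21.7% of all genes. The sum of 6 high endothelial venule markers was 2120000 to 2880000 in LN-BEC, 70300 to 100000 in LN-LEC and 6220 to 7230 in D-LEC. In the lymph node populations this sum was mostly Glycam1, at means of 2427000 in LN-BEC and 72740 in LN-LEC. The sum of 9 skeletal muscle markers was 1200 to 1830 in D-LEC and at most 98.9 in the lymph node populations, where 8 of the 9 had a mean level under 10. T cell markers summed to 256 to 283, 276 to 524 and 107 to 156 in this order of LN-LEC, then LN-BEC, then D-LEC, B cell markers to 710 to 1480, 934 to 1400 and 140 to 169, and myeloid markers to 267 to 362, 346 to 509 and 498 to 882. The T cell sum in LN-LEC was mostly Lck, at a mean of 231, and Lck was 1.74-fold higher in LN-LEC than LN-BEC (adjusted p = 0.011, edgeR). Cd3d, Cd3e, Cd3g and Cd8a were 10.4-fold, 9.56-fold, 9.07-fold and 6.20-fold lower in LN-LEC than LN-BEC (adjusted p = 6.5e-05, 0.0043, 0.0057 and 0.0051, edgeR). Cd4 was not called (adjusted p = 0.19, edgeR). Of the 6 B cell markers, 4 were also lower and 2 were not called. Fibroblast and pericyte markers summed to 6890 to 11800, 7010 to 12900 and 2480 to 7180. Of these 8 genes, 4 were lower in D-LEC than in each lymph node population, beside 24.1% and 25.6% of all genes. Among them was Rgs5, at means of 3856, 4393 and 66.4. The other 4, Pdgfra, Col1a1, Col1a2 and Dcn, were not called in any comparison. Adipocyte and mesothelial markers summed to 21400 to 30700, 112000 to 219000 and 3700 to 6160. This last sum was carried by Fabp4, which endothelial cells also express, and the mesothelial markers in it ran the other way: Msln, Upk3b and Wt1 were 55.5-fold, 38.7-fold and 15.9-fold lower in LN-LEC than D-LEC (adjusted p = 1.5e-05, 0.00025 and 0.0067, edgeR), and all of these were also higher in D-LEC than LN-BEC. Cell cycle genes summed to 3930 to 4850, 4580 to 5100 and 3910 to 4740. The part of these in the results above was not tested, and in bulk RNA fewer cells of a type and less RNA per cell cannot be told apart.

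The genes of a library share its depth and its RNA composition, both of which differed between libraries. Over the 10 libraries, the 5 member enzymes with counts had a mean log2 deviation of 0.53, 0.76, 0.60 and 0.33 in LN-LEC, -0.28, -0.25 and -0.57 in LN-BEC, and -0.44, -0.27 and -0.41 in D-LEC. LN-LEC 4 was nearest to the other populations and LN-BEC 3 lowest. The place of LN-BEC 3 rests in part on Idi1, which held 6 raw counts there and has equal weight in the mean. After population means were subtracted, Cyp51 had a Pearson r of 0.95 with Srebf2, 0.82 with Insig1, 0.79 with Sqle and 0.63 with Fdps over the 10 libraries. D-LEC 2 was the highest D-LEC library for each of these genes, and how far r rests on it was not tested. In LN-BEC 2, Cyp51 was the highest of its population, at 882, and Srebf2 the lowest, at 223. With population means subtracted, Lss and Cyp51 had an r of -0.78, on Lss counts of 31 to 156 per library. D-LEC 2 had the lowest Lss level of its population, 31.1, and the highest Cyp51 level, 1255. In LN-LEC, by contrast, Lss and Cyp51 were both highest in LN-LEC 2, at 117 and 2102. This r is thus not a pattern of each population. Outside the synthesis enzymes, of 11056 genes with a mean level of at least 50, those with a pattern most like the mean of the 5 enzymes over all libraries were Evc2 (r = 0.99), Prpf38b (0.985), Slc25a37 (0.985), Scamp2 (0.98) and Apc (0.979). After population means were subtracted they included Zfp281 (0.966), Zfp329 (0.965), Krit1 (0.961) and Mtr (0.959). These are descriptions of 10 points that fall into 3 populations.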

How the data were processed

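Sorted-cell RNA went through Ovation amplification and was read as pairs of 100 bases. The authors aligned reads with STAR to mm9 and deposited raw read counts per gene from featureCounts 1.4.4, over exons grouped by gene name, without strand and without reads that mapped to several places or genes. A total of 3805 unnamed or predicted symbols was left out, and 15331 of 23284 symbols with a mean normalised count of at least 1 in a population were tested. One edgeR 4.0.16 quasi-likelihood fit (R 4.3.3, TMM) held a mean per population over 10 libraries, with Benjamini-Hochberg adjustment over all genes tested. Levels are counts divided by DESeq2 1.42.0 size factors. Totals of 22429940 to 48906070 counts set the precision. The labels give no batch or pairing, and libraries are numbered for naming alone. The p-values set each difference against the spread between these pooled samples, estimated jointly over the populations. Alternatives were DESeq2, limma-voom (limma 3.58.1), other scaling and filters, each comparison alone, unnamed rows kept and libraries left out. Internal exon boundaries of the pathway genes lay at the same base in the reference annotation for 99.6% of 2216. Named were the members, Srebf1, Scap and Insig2, and from each list up to 4 genes with the largest fold among those called in each comparison; some genes that this rule names are not reported here. The members and lists were chosen with earlier results of these data known. The fit was tested on simulated counts.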

Additional observations from a re-analysis of the deposited data

Results flagged for a closer look

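Within the 4 LN-LEC libraries, 3 of 54 genes of the set and its pathway lists had a library far from the other libraries of the population, and chance gives such a value in about 5% of groups. Sqle was at 1319 in LN-LEC 2, against 904.6 to 972.2 in the others. Lss was at 98.07 in LN-LEC 4, against 114.1 to 116.8. Erlin2, which encodes an endoplasmic reticulum protein of sterol-regulated degradation, was at 1841 in LN-LEC 4, against 1633 to 1657. Both other populations held 3 libraries and were not examined in this way.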

How the results depend on the processing

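Of 375 member fold changes under the alternatives, 367 kept their direction and side of the threshold, 1 lost significance (Lss against LN-BEC, adjusted p = 0.075 without LN-BEC 2) and 7 changed sign, all between D-LEC and LN-BEC and with none called before or after. Over all alternatives that tested it, Idi1 ranged from -0.20 to 0.24. Its sign change gave -0.01 without D-LEC 2, -0.20 without LN-BEC 3 and -0.17 without both LN-BEC 3 and LN-LEC 4. For Fdps it gave 0.10 without LN-BEC 2, 0.06 without D-LEC 1 and 0.05 without D-LEC 3 (range -0.19 to 0.10), and for Cyp51 -0.13 without D-LEC 2 (range -0.13 to 0.29); the cause was not tested. Idi1 had no value with a filter of FPKM at least 1, which removed it. Scaling by DESeq2 size factors put the median of all genes at -0.02, 0.01 and -0.05 in the 3 comparisons, beside -0.01, 0.03 and -0.05 with TMM. No paired analysis was possible because the labels give no replicate numbers shared among populations. Idi1 held only 6 to 23 counts, and what reads with several positions took from them was not measured.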
